A study of Mus musculus with 24 samples.

Results

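Mammary glands taken 28 h after a first injection of progesterone were set against the glands of mice given only oil and killed at 4, 16 or 76 h. The comparison used 12 of the study's 24 microarrays, chosen by their titles: 3 progesterone arrays of 28 h and 9 oil arrays, 3 from each of the other times. The progesterone mice were nulliparous Balb/c females, ovariectomized at 6 weeks of age, rested for 2 weeks and then injected under the skin each day with 1 mg of progesterone in 100 µl of sesame oil. The oil mice were of the same strain, age and surgery and received the sesame oil alone. Each array held RNA pooled from 5 mice, so that 15 progesterone mice were compared with 45 oil mice. All groups therefore lacked ovaries, the labels name no oestrogen, and on a daily schedule of 24 h the 28 h glands had seen more than 1 injection.

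The oil arrays of 28 h, the controls of the same time, were left out because they stood apart from the other oil arrays. Their summed intensity over 24 connective tissue matrix genes, for example, ranged between 57623 and 66159, against 79276 to 93079 in the other oil arrays. Their values are printed beside many of the genes below, and called genes whose progesterone arrays do not lie outside them are named as such. The labels give no clock time of injection or killing. If injections fell at the same hour, glands of 4, 28 and 76 h shared a time of day and those of 16 h did not.

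Progesterone acts through its receptor, a hormone-activated transcription factor that in the mammary gland is made by a subset of luminal cells. Those cells pass the signal to their neighbours with secreted ligands, of which RANKL (Tnfsf11) and WNT4 are the best known, and the basal and luminal cells around them divide and form side branches. The ducts hold an inner luminal layer and an outer basal layer of contractile myoepithelium, embedded in fat and connective tissue, so that RNA of a whole gland mixes all of them.

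Of 12352 genes tested, 62 were called at an adjusted p under 0.05, which is 0.502%. Of these, 33 were higher with progesterone (0.267%) and 29 were lower (0.235%). None of the 9 oil arrays was of 28 h, so in these calls progesterone and time of collection cannot be told apart. The median log2 change over all genes was -0.04, and array medians lay between 62.8 and 69.5 intensity units. In the 33 higher genes all 3 progesterone arrays lay above the 9 oil arrays, as they did in 1.03% of all genes, and in 27 they lay above all 12 oil arrays with those of 28 h included (0.453% of all genes). Among the 29 lower genes, 26 lay below the 9 oil arrays (1.3% of all genes) and 14 below all 12 (0.259%). The rises ran up to a log2 change of 3.51 and the falls down to -1.74, with 11 rises and 8 falls of at least 2-fold. At an unadjusted p under 0.05 the limma fit held 1417 genes, 11.5% of those tested. Csn2, Krt17, Dnaic1 and Prom2 would not have passed the intensity filter on the 9 oil arrays, so that the filter favoured a rise, and were not tested when the filter was applied there.

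**Figure D1:**
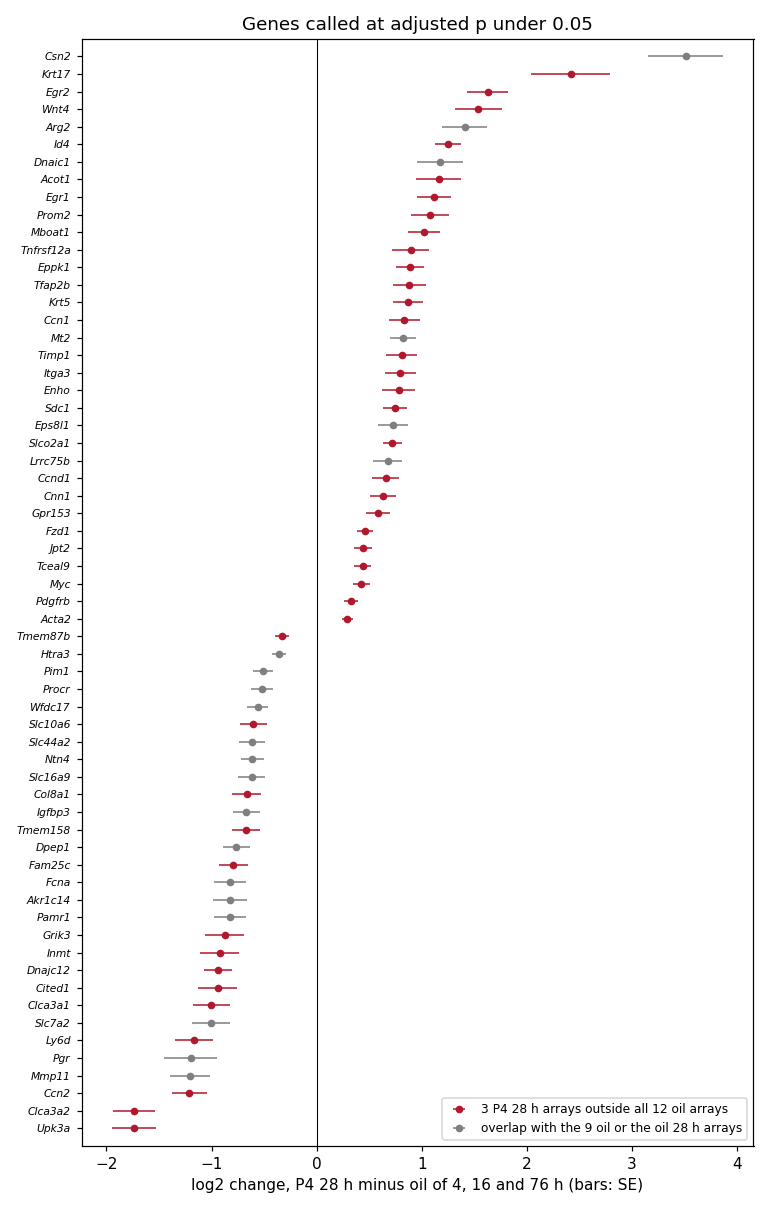
Log2 change of each of the 62 called genes, progesterone 28 h minus oil of 4, 16 and 76 h, with its SE as a bar. Red points are genes whose 3 progesterone arrays lay outside all 12 oil arrays (27 higher, 14 lower), and grey points are the others.

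The 3 progesterone arrays carried these calls unequally. Replicate 1 had the furthest value from the oil mean in 26 of the 33 higher genes and replicate 2 in 22 of the 29 lower ones, while replicate 3 had it in 5 of the 62. Without replicate 1 there were 11 calls (4 higher, 7 lower), without replicate 2 there were 36 (32 higher, 4 lower) and without replicate 3 there were 278 (60 higher, 218 lower). Leaving out an oil array gave between 48 and 66. The summed intensity of 22 luminal epithelial markers was 14291, 8714 and 11984 in progesterone replicates 1, 2 and 3, against 9207 to 12110 in the oil arrays, so replicate 1 was the highest and replicate 2 the lowest of the 12 arrays. Its part in the calls was not tested. In 8 genes the call held without each of the 12 arrays in turn: Csn2, Egr2, Id4 and Slco2a1 were higher, and Upk3a, Clca3a2, Ccn2 and Dnajc12 were lower.

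**Figure D2:**
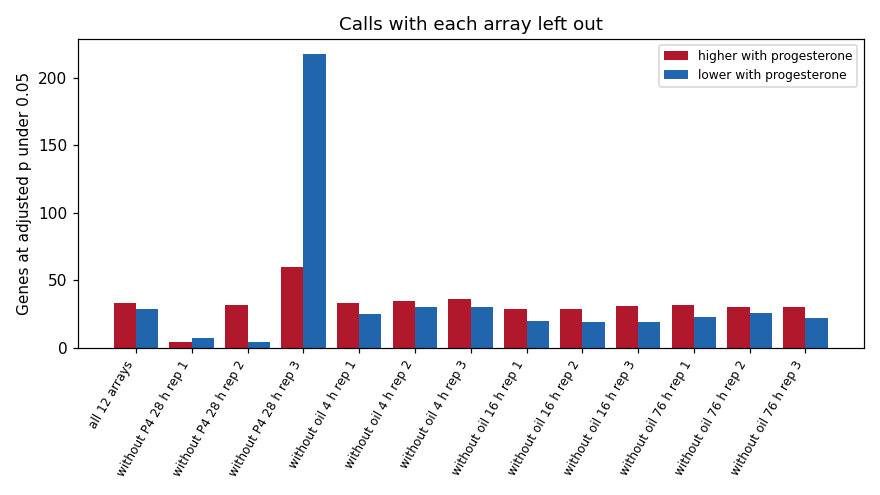
Number of genes called higher (red) and lower (blue) at an adjusted p under 0.05 with all 12 arrays and with each array left out. The count was 11 without progesterone replicate 1 and 278 without progesterone replicate 3.

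The progesterone receptor itself, Pgr, was lower in progesterone glands. Its intensities were 182, 109.7 and 244 in the progesterone arrays, against 235 to 588 (median 411) in the 9 oil arrays and 445, 406 and 427 in the oil arrays of 28 h. The progesterone array with the highest value passed the lowest oil array, so the groups overlapped. The log2 change was -1.20 ± 0.25 (SE; 2.29-fold lower, adjusted p = 0.0434). Oil glands were not equal among themselves, with means of 464 ± 46.6 at 4 h, 465 ± 107 at 16 h and 279 ± 43.2 at 76 h (SD, n = 3 each). The call held in 3 of 12 fits that left out 1 array, and not without progesterone replicate 1 (adjusted p = 0.242) or replicate 2 (adjusted p = 0.342). Against oil of 76 h alone the log2 change was -0.71. In bulk tissue, fewer cells that make a transcript and less transcript per cell cannot be told apart. Cited1, a transcriptional co-regulator found in luminal cells that bear hormone receptors, had 306, 118 and 224 with progesterone, against 345 to 432 (median 394) with oil and 413, 402 and 436 in the oil arrays of 28 h, and all progesterone arrays lay below all 12 oil arrays (log2 change -0.94 ± 0.19, adjusted p = 0.0325). The call held in 6 of 12 fits that left out 1 array. Without replicate 2, the lowest array, the log2 change was -0.56 (adjusted p = 0.101), and with oil of 4 and 76 h as controls it was -0.89 (adjusted p = 0.206). The oestrogen receptor gene Esr1 had 1363, 1043 and 1414 with progesterone, against 944 to 1486 (median 1231) with oil, and was not called (log2 change 0.07 ± 0.13, adjusted p = 0.867).

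Wnt4, the WNT ligand that acts on basal cells, was higher in every progesterone array than in any oil array. Its intensities were 271, 143 and 289 with progesterone, against 46.3 to 98.2 (median 78.9) with oil and 90.6, 85 and 103 in the oil arrays of 28 h. The log2 change was 1.54 ± 0.22 (2.9-fold, adjusted p = 0.00488), and a second probe set of the gene gave 1.15. Without progesterone replicate 1 the adjusted p was 0.0785. Tnfsf11, which encodes RANKL, had 64.5, 67.9 and 80.4 with progesterone, against 35.8 to 56.5 (median 46.7) with oil. The progesterone values lay above the 9 oil arrays but not above the oil arrays of 28 h (67, 67.7 and 36.1), and the gene was not called (log2 change 0.64 ± 0.17, adjusted p = 0.146). Tnfsf11 lay below the array median in each of the 9 oil arrays, and a second probe set gave 0.32. Of 14 EGF family and WNT genes tested, Wnt4 was the 1 that passed, and the median log2 change of the list was 0.22.

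Id4, an inhibitor of basic helix-loop-helix transcription factors known from the basal layer, shared the smallest adjusted p of all genes with Csn2. Progesterone arrays held 728, 467 and 608, against 211 to 294 (median 248) in oil arrays and 219, 228 and 177 in the oil arrays of 28 h, with a gap between the groups wider than the range of the oil arrays. The log2 change was 1.25 ± 0.12 (2.38-fold, adjusted p = 0.000211), and 2 further probe sets gave 1.48 and 1.28. Cyclin D1 (Ccnd1), which drives entry into the cell cycle, rose to 1275, 1051 and 1022 with progesterone, against 569 to 925 (median 695) with oil and 764, 775 and 705 in the oil arrays of 28 h (log2 change 0.66 ± 0.13, adjusted p = 0.0291). Its call held in 9 of 12 fits that left out 1 array and ended, among others, without replicate 1 (adjusted p = 0.297) and without replicate 2 (adjusted p = 0.0965). It also ended with oil of 4 and 76 h (adjusted p = 0.164), and the log2 change was 0.42 against oil of 4 h and 0.88 against oil of 76 h. None of 33 mitosis genes and none of 29 DNA replication genes passed, with median log2 changes of -0.19 and 0.08. At an unadjusted p under 0.05 of the limma fit, 2 mitosis and 3 replication genes did. Myc, a transcription factor of growth, rose by a log2 change of 0.43 ± 0.079 (adjusted p = 0.0209), with 475, 428 and 439 in progesterone arrays, against 306 to 359 (median 344) in oil arrays. It was the 1 of 26 ribosome biogenesis genes that passed.

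Mboat1, an acyltransferase of phospholipids, and Eppk1, which encodes the keratin-binding epiplakin, completed the rises among 16 tested genes known to respond to progesterone in this gland. Mboat1 had 356, 194 and 283 with progesterone, against 115 to 154 (median 131) with oil (log2 change 1.02 ± 0.15, adjusted p = 0.0056). A second, dimmer probe set of Mboat1 gave 0.25. Eppk1 had 567, 436 and 506, against 216 to 320.3 (median 262) with oil. The oil arrays of 28 h held 352, 407 and 393 for Eppk1, above every other oil array and below every progesterone array. In that list 5 genes rose (Wnt4, Id4, Mboat1, Eppk1, Ccnd1) and 2 fell (Pgr, Cited1), against 0.502% of all genes called, and the median log2 change was 0.47. The list was compiled with earlier results of these data known and is no independent evidence. Without replicate 1 it held 1 rise (Id4) and 1 fall (Cited1). Without replicate 2 it held 5 rises and no fall, and Ccnd1 was not among those rises.

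**Figure D3:**
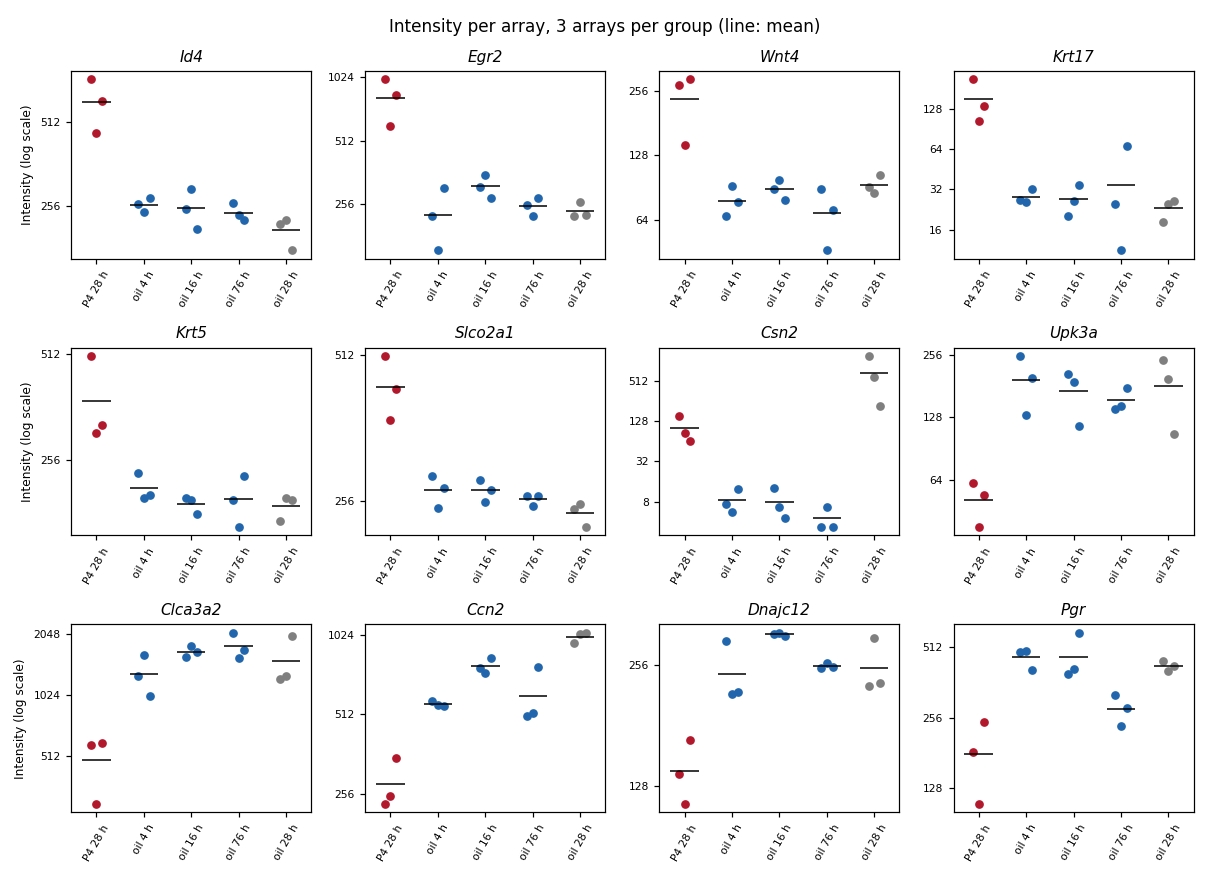
Intensity per array on a log axis for 12 genes, with the mean of each group as a line. The 3 progesterone arrays of 28 h (red) stand left of the oil arrays of 4, 16 and 76 h (blue) and of the oil arrays of 28 h (grey), and Csn2 was highest in the grey arrays.

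The basal keratins Krt17 and Krt5 rose, and Krt14 did not pass. Krt17 had 213, 104 and 134 with progesterone, against 11.3 to 67.1 (median 26.2) with oil and 18.4, 24.8 and 26.1 in the oil arrays of 28 h. All progesterone arrays stood above all oil arrays, and the log2 change of 2.42 ± 0.37 (5.33-fold, adjusted p = 0.00608) was second among called genes to that of Csn2. It exceeded the array median on 1 of the 9 oil arrays and on all 3 progesterone arrays, so that it entered the test through progesterone arrays. Krt5, the keratin that defines basal cells, had 503, 305 and 321 with progesterone, against 167 to 236 (median 200.3) with oil and 173, 200.3 and 198 in the oil arrays of 28 h (log2 change 0.87 ± 0.14, adjusted p = 0.00814). Replicate 1 was the highest array for both, and without it the adjusted p was 0.111 for Krt17 and 0.0814 for Krt5. Its partner Krt14 had 603, 389 and 472 with progesterone, against 236 to 502 (median 309) with oil and 337, 325 and 393 in the oil arrays of 28 h, and was not called (adjusted p = 0.154). An oil array of 76 h and an oil array of 28 h lay above the lowest progesterone array. The log2 change of Krt14 was 0.64, and a second, dimmer probe set gave 1.05.

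Genes of the contractile apparatus of myoepithelium moved by less. Calponin (Cnn1) rose to 243, 216 and 292 with progesterone, against 126 to 197 (median 166) with oil (log2 change 0.63 ± 0.12, adjusted p = 0.0323). Smooth muscle actin (Acta2) had 5231, 4501 and 4926 with progesterone, against 3831 to 4179 (median 3988) with oil, and its log2 change of 0.29 ± 0.051 was the smallest of all called genes (adjusted p = 0.0165). Both also occur in the muscle of vessel walls. Of 21 basal and myoepithelial genes, 4 rose and none fell, against 0.267% of all genes called higher, with a median log2 change of 0.17. With the intensity filter applied to the 9 oil arrays, Krt17 was not tested, and 3 of 17 genes rose. Without replicate 1 none of the 4 was called, and with oil of 4 and 76 h as controls Krt17 alone was. The summed intensity of the list was 14533, 12163 and 12985 in the progesterone arrays, against 10680 to 11965 in the oil arrays, a sum to which Acta2 gives the most.

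Immediate early genes, transcription factors that respond within minutes to growth signals, were represented by Egr2 and Egr1. Egr2 had 998, 602 and 840.3 with progesterone, against 156 to 351 (median 273) with oil and 224, 263 and 228 in the oil arrays of 28 h. In intensity, every progesterone array exceeded every oil array by more than the range of the oil arrays (log2 change 1.63 ± 0.20, 3.09-fold, adjusted p = 0.000879). Egr1 had 2436, 1654 and 2633 with progesterone, against 839 to 1351 (median 907) with oil and 1043, 1098 and 1034 in the oil arrays of 28 h (log2 change 1.12 ± 0.16, adjusted p = 0.00488), and without replicate 1 its adjusted p was 0.0785. With Myc these were 3 of 20 immediate early genes, against 0.267% of all genes called higher. The median log2 change of the list was 0.16. The members Fos, Junb and Nr4a1 had log2 changes of 0.10, 0.28 and 0.15 and were not called. Of the 20 members, 14 had a positive log2 change, and the lowest was -0.40.

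The start of Egr2 carries a CArG box, the element bound by serum response factor, 72 bases before the start of transcription, shown because Egr2 had the largest rise of the called transcription factors. The RefSeq promoter at chr10:67537316-67537615 (GRCm38.p6, plus strand, 250 bases before to 50 after the start) is printed with the box in capitals.
Egr2: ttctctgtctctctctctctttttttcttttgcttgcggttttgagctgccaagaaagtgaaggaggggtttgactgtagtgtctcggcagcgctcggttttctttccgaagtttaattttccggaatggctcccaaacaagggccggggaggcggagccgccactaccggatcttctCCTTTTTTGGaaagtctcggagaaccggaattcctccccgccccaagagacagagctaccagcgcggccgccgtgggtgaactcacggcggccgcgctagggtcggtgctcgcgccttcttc
The box, searched by its name on both strands, was found in 1.63% of the 32851 promoters of the table, and among 53 of the 68 reported genes that matched also in Cited1. The share is per promoter, while a gene counted if any of its promoters held the box. Of the 5 start sites listed for Egr2, 4 held it. A match is a description of the letters and not of binding.

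Ccn1 and Ccn2, a pair of secreted matrix-associated proteins of the same family, moved in opposite directions. Ccn1 rose to 568, 406 and 438 with progesterone, against 206 to 356 (median 259) with oil and 344, 294 and 290.5 in the oil arrays of 28 h (log2 change 0.83 ± 0.15, adjusted p = 0.0165). Ccn2, also called connective tissue growth factor, fell to 234, 249 and 349 with progesterone, against 505 to 838 (median 573) with oil. The oil arrays of 28 h were higher still, at 954, 1030.0 and 1039.7, so that the progesterone arrays lay below all 12 oil arrays (log2 change -1.21 ± 0.17, 2.32-fold lower, adjusted p = 0.00316). Of 23 TGF-beta, BMP and Ccn genes these were the 2 called, and the median of the list was -0.02. Timp1, an inhibitor of matrix metalloproteases, rose to 233, 149.6 and 189 with progesterone, against 81.9 to 123 (median 111) with oil (log2 change 0.81 ± 0.15, adjusted p = 0.0203), and was lower in the oil arrays of 28 h (47.2, 62.3 and 84.6). It was the 1 of 24 connective tissue matrix genes called.

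Mmp11, a matrix metalloprotease made by stroma, fell to 49.5, 45.4 and 54 with progesterone, against 80.8 to 170.3 (median 115) with oil (log2 change -1.21 ± 0.19, adjusted p = 0.00827). None of the progesterone arrays reached the median of its array for Mmp11, a range where a fold change is imprecise. The oil arrays of 28 h held 64, 86.6 and 43, and with all 12 oil arrays as controls its adjusted p was 0.331. The list of matrix proteases and their inhibitors had 18 tested members, of which Timp1 was higher and Mmp11 lower.

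The largest falls were those of Upk3a and Clca3a2. Upk3a, a uroplakin of the urothelial surface plaque, had 61.7, 37.9 and 54.2 with progesterone, against 116 to 251 (median 176) with oil and 240.0, 194 and 106 in the oil arrays of 28 h. Progesterone arrays lay below all oil arrays, and below the median of their own array, with a log2 change of -1.74 ± 0.21 (3.34-fold lower, adjusted p = 0.000879). Clca3a2, a regulator of calcium-activated chloride channels, had 581, 297 and 591 with progesterone, against 1018 to 2076 (median 1614) with oil and 1231, 1271 and 2008 in the oil arrays of 28 h (log2 change -1.74 ± 0.20, 3.33-fold lower, adjusted p = 0.000861). Its close relative Clca3a1 fell to 432, 332 and 529, against 576 to 1112 (median 903) with oil (log2 change -1.002 ± 0.17, adjusted p = 0.0141). The sequences of both genes are alike, and whether their probe sets cross-hybridized was not tested.

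Slc7a2, a transporter of cationic amino acids, had 391, 224 and 347 with progesterone, against 389.6 to 752 (median 688) with oil. A single oil array of 4 h, the lowest, lay below the highest progesterone array, and the other oil arrays stood above (log2 change -1.01 ± 0.18, adjusted p = 0.0174). Clca3a2, Clca3a1 and Slc7a2 were the 3 called among 17 epithelial transporters and channels, against 0.235% of all genes called lower. The median log2 change of the list was -0.05. The uncalled members ran both ways, from Atp6v1b1, a proton pump subunit, at -1.57 to the calcium channel gene Cacna1g at 1.29. Ly6d, a small surface protein of epithelia and B cells, fell to 138, 117 and 182 with progesterone, against 235 to 479 (median 305) with oil (log2 change -1.16 ± 0.18, adjusted p = 0.00608). Dnajc12, a co-chaperone, fell to 137, 115 and 166 with progesterone, against 217 to 307 (median 258) with oil (log2 change -0.94 ± 0.13, adjusted p = 0.00435). For Ly6d and Dnajc12 the progesterone arrays lay below all 12 oil arrays.

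Luminal markers as a list did not move one way. Tfap2b, a transcription factor of the AP-2 family, rose to 372, 228 and 343 with progesterone, against 138 to 213 (median 165) with oil (log2 change 0.88 ± 0.16, adjusted p = 0.0165). It was the 1 luminal gene of 22 that rose, Pgr and Cited1 were the 2 that fell, and the median was 0.05. The uncalled keratins Krt8 and Krt18 had log2 changes of 0.44 and 0.02, and the adhesion molecule Epcam had 0.06. Elf5, a transcription factor of luminal progenitors, had 149, 82.2 and 158 with progesterone, against 105 to 228 (median 177) with oil, and did not pass (log2 change -0.54 ± 0.22, adjusted p = 0.375). A second, dimmer probe set of Elf5 gave 0.05.

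Beta-casein (Csn2), a milk protein, gave the largest change and also the clearest dependence on which oil arrays were used. Progesterone arrays held 153, 86.3 and 64.7, against 3.38 to 12.9 (median 6.64) in the 9 oil arrays, where the gene lay near the floor of 7.38 and below the median of every array. The log2 change was 3.51 ± 0.36 (adjusted p = 0.000211), an understatement, since values below the floor were raised to it. The oil arrays of 28 h held 1194, 575 and 212, above all 3 progesterone arrays. Against those oil arrays the log2 change was -2.47 (adjusted p = 0.00343, fit of all 24 arrays), and with all 12 oil arrays pooled it was 2.01 (adjusted p = 0.822). Thus Csn2 was higher than in oil of the other times and lower than in oil of its own time. A second probe set of Csn2, dim throughout and not used, had a log2 change of 0.76. Of 12 milk genes Csn2 alone passed. Csn1s2a, another casein, had a log2 change of 1.84 (adjusted p = 0.0788), and the median of the list was -0.04. None of 13 genes of the prolactin and Stat5 pathway passed (2 at an unadjusted p under 0.05 in limma), and Stat5a, the signal transducer that activates casein genes, had a log2 change of 0.10 ± 0.11 (adjusted p = 0.742).

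The promoter of Csn2 is shown because the gene had the largest change and is the textbook target of Stat5. It lies at chr5:87699376-87699675 (RefSeq, GRCm38.p6, minus strand), and the capitals mark TTCNNNGAA, the Stat5 motif, which begins 93 bases before the start of transcription and reads as a match on both strands.
Csn2: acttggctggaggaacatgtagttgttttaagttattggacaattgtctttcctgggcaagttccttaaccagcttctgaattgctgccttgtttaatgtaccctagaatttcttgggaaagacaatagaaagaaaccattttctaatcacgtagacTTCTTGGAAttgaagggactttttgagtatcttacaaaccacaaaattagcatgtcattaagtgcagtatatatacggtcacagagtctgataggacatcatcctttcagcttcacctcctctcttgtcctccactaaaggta
The motif was present in 8.3% of the 32851 promoters of that length, and among the reported genes also in Esr1. The hexamer TGTTCT, a half-site of the progesterone and glucocorticoid receptors, was searched on both strands too. It was in 19.0% of all promoters, and of the 53 matched genes 7 held it: Acot1, Acta2, Dnaic1, Eps8l1, Mmp11, Slc10a6 and Tceal9. These shares too are per promoter, while a gene counted if any of its promoters held a match, so the shares and the gene counts are in unlike units.

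The other rises covered enzymes, adhesion and membrane proteins. Arg2, the mitochondrial arginase, had 282, 133 and 309 with progesterone, against 59.4 to 104 (median 88) with oil (log2 change 1.41 ± 0.22, adjusted p = 0.00561), and replicate 2, the lowest progesterone array, lay below the highest oil array of 28 h (90.7, 115 and 153). Acot1, an acyl-CoA thioesterase, had 385, 159.7 and 289 with progesterone, against 89.7 to 159 (median 118) with oil (log2 change 1.16 ± 0.21, adjusted p = 0.0199), and there replicate 2 only just cleared the oil arrays. Dnaic1, a subunit of the dynein of cilia, and Prom2, a pentaspan membrane protein, rose by log2 changes of 1.17 and 1.07. Both lay below the array median in each of the 9 oil arrays. An oil array of 28 h reached 65.2 for Dnaic1, above the lowest progesterone array (49.5). Tnfrsf12a, the receptor of the cytokine TWEAK, rose to 286, 186 and 258, against 90.6 to 164 (median 140.2) with oil (log2 change 0.89 ± 0.18, adjusted p = 0.0326). Slco2a1, the prostaglandin transporter, had 509, 376 and 435 with progesterone, against 248 to 288 (median 262) with oil. Its change was modest and its oil arrays lay close together (log2 change 0.72 ± 0.093, adjusted p = 0.00175).

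Sdc1, a heparan sulphate proteoglycan of epithelia and of plasma cells, rose to 1312, 849 and 1073 with progesterone, against 570.4 to 754 (median 635) with oil (log2 change 0.75 ± 0.11, adjusted p = 0.00559). The other 12 plasma cell markers tested were not called, and the list's median was -0.13. Mt2, a metallothionein that steroids and metals induce, rose to 1480.2, 1684 and 1222 with progesterone, against 657 to 1028 (median 779.7) with oil (log2 change 0.82 ± 0.13, adjusted p = 0.00561). An oil array of 28 h reached 1406 for Mt2, above the lowest progesterone array. It was the 1 of 21 glucocorticoid and steroid response genes called, and Fkbp5, a co-chaperone that glucocorticoids and progestins induce, had 493, 391 and 375 with progesterone, against 325 to 560.5 (median 414) with oil (log2 change 0.01 ± 0.14, adjusted p = 0.982).

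The remaining called genes, most of them named after their values were seen, had log2 changes between -0.92 and 0.80. The rises were the integrin subunit Itga3 (0.80), Enho (0.78), Eps8l1 (0.73), Lrrc75b (0.67), the orphan receptor Gpr153 (0.58), the WNT receptor Fzd1 (0.46), Jpt2 (0.44), Tceal9 (0.44) and the platelet-derived growth factor receptor Pdgfrb (0.33). Lrrc75b and Eps8l1 overlapped with the oil arrays of 28 h and the other 7 did not. Among the falls that lay below all 12 oil arrays were the methyltransferase Inmt (-0.92), the kainate receptor subunit Grik3 (-0.87, below the array median with progesterone), Fam25c (-0.79), Tmem158 (-0.67), the collagen Col8a1 (-0.67), the steroid sulphate transporter Slc10a6 (-0.60) and Tmem87b (-0.33).

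A further group of falls was also low in the oil arrays of 28 h. Fcna, a ficolin of macrophages, had 199, 159.9 and 226 with progesterone, against 223 to 397 (median 358) with oil of the other times and 47.1, 75.4 and 136 in the oil arrays of 28 h. Progesterone glands were thus lower than oil of other times and higher than oil of their own time (log2 changes -0.82 and 1.30, adjusted p = 0.0203 and 0.00547). Wfdc17 had the same order of groups, with 646, 647 and 703 in progesterone arrays, against 839 to 1151 (median 978) in the 9 oil arrays and 260.3, 347 and 526 in the oil arrays of 28 h. Akr1c14, a hydroxysteroid dehydrogenase, the insulin-like growth factor binding protein Igfbp3, the protease gene Htra3 and Pamr1 had log2 changes of -0.83, -0.67, -0.36 and -0.83 against the 9 oil arrays. Against the oil arrays of 28 h theirs were 0.43, 0.24, 0.07 and 0.23, none of them called. The dipeptidase Dpep1 (-0.77), the netrin Ntn4 (-0.61), the choline transporter-like Slc44a2 (-0.61), Slc16a9 (-0.62), the protein C receptor Procr (-0.52) and the kinase Pim1 (-0.51) also overlapped with the oil arrays of 28 h.

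Another probe set of the same gene passed the filter for 27 of the called genes. Of 38 such probe sets, 35 had the direction of the reported one. The exceptions were Pim1, with 0.45 against -0.51, Htra3, with 0.23 against -0.36, and Slc44a2, with 0.09 against -0.61, all 3 of them genes lower with progesterone on the reported probe set. A shared direction did not always mean a like size: for Fzd1 the other probe set gave 0.05 against 0.46.

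**Figure D4:**
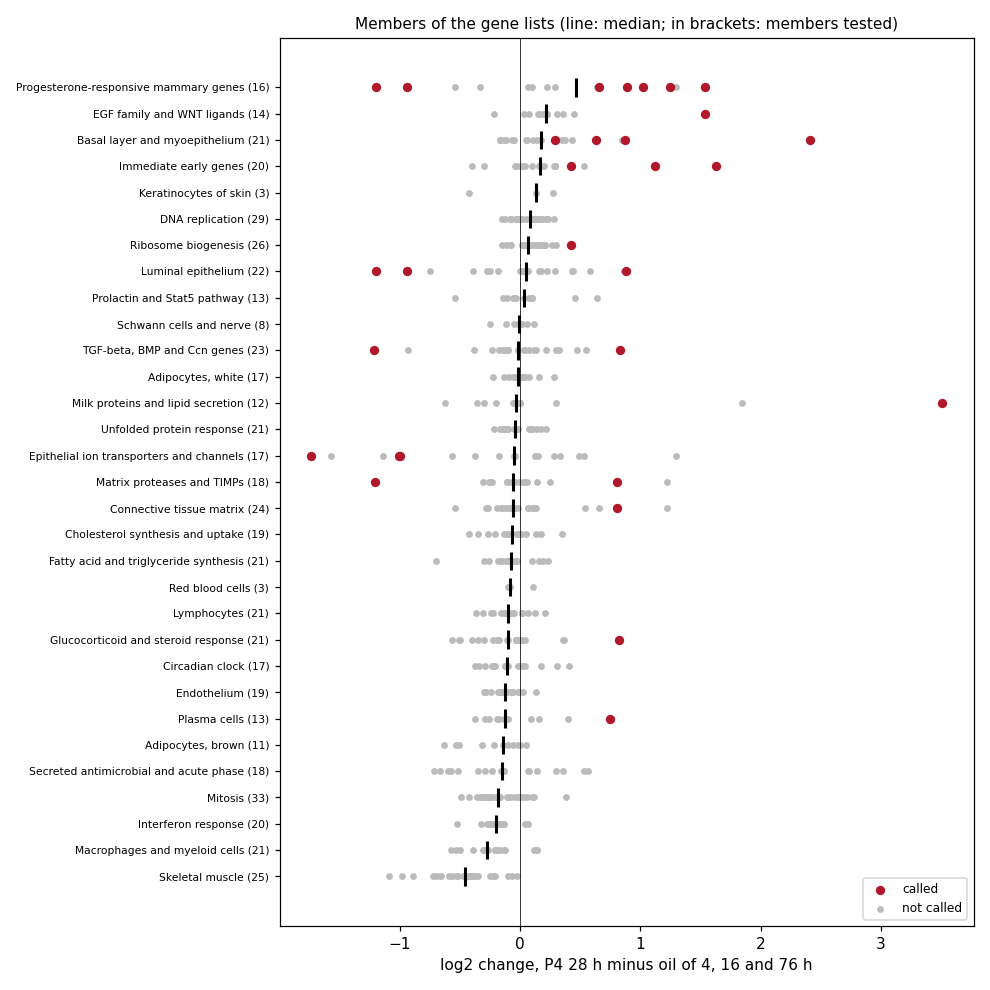
Log2 change of every tested member of the 31 gene lists, progesterone 28 h minus oil of 4, 16 and 76 h, with the median of each list as a black line and called genes in red. The medians ran from -0.46 in skeletal muscle to 0.47 in progesterone-responsive genes.

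Of the 31 gene lists, 13 held a called gene and 18 held none. Over all genes, 0.502% were called. The lists of muscle, macrophage, lymphocyte, endothelial, nerve, red cell, skin and fat cell markers held no called gene. All 25 skeletal muscle genes tested had a negative log2 change, with a median of -0.46 and none at an unadjusted p under 0.05 in limma. Their summed intensity ranged between 22696 and 53832 with progesterone, against 13982 to 88342 with oil. That median was 0.18 with oil of 76 h alone as controls and -0.05 without progesterone replicate 2. The 21 macrophage and myeloid genes had a median of -0.27, with 15 at an unadjusted p under 0.05 against 11.5% of all genes. None was called in the 12-array fit, while 3 were called lower with arrays centred on their medians, 4 with a mean per oil time and 8 with array weights. Their sum was 34085 to 37090 with progesterone, against 39063 to 46326 with oil, with no overlap. In the oil arrays of 28 h that sum was 27070 to 34985. The 20 interferon response genes had a median of -0.20, with 2 positive and 5 at an unadjusted p under 0.05. White adipocyte genes lay near the median of all genes (17 tested, median -0.02), as did Schwann cell genes (8 tested, median -0.01). Brown adipocyte, endothelial and lymphocyte lists had medians of -0.15, -0.12 and -0.10. Secreted antimicrobial and acute phase genes had a median of -0.15 (18 tested, 9 at an unadjusted p under 0.05), and circadian clock genes -0.11 (17 tested, none). Fatty acid synthesis, cholesterol synthesis and unfolded protein response lists had medians of -0.08, -0.07 and -0.04. The part of these shifts in the fall of Fcna, a macrophage gene outside the list, was not tested. Of the markers of skin keratinocytes and of red blood cells, 3 of 12 each passed the intensity filter.

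**Figure D5:**
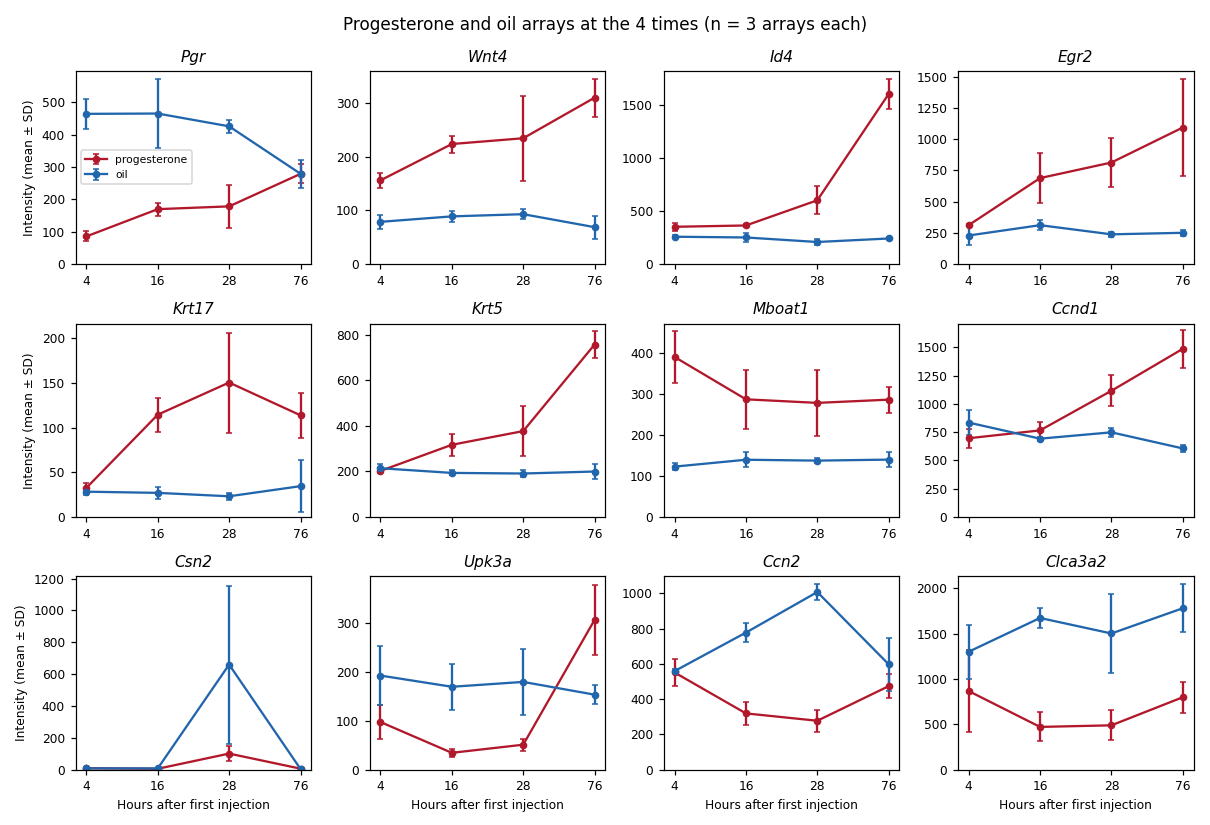
Mean intensity ± SD (n = 3 arrays) at 4, 16, 28 and 76 h after the first injection in progesterone (red) and oil (blue) glands for 12 genes. At 28 h Csn2 was lower in progesterone than in oil glands, the Ccn2 mean of oil glands was at its highest, and Id4 and Krt5 were higher at 76 h than at 28 h with progesterone.

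Some of these genes were read at each time against the oil arrays of that time, in a fit of all 24 arrays. These comparisons share oil arrays with the one above, and differences between times were not tested. Id4 had log2 changes of 0.44, 0.55, 1.52 and 2.73 in the order 4, 16, 28, 76 h. Krt5 had -0.08, 0.70, 0.95 and 1.94 in that order, and Krt17 had 0.19, 2.11, 2.66 and 2.07. For Wnt4 the values were 0.99, 1.33, 1.27 and 2.22. Each of these 4 genes was called at 28 h and at 76 h. Pgr went the other way, with -2.45, -1.44, -1.33 and 0.00, and was called at every time but 76 h. At 76 h oil glands had their lowest mean (279) and progesterone glands their highest (279, against 85.5 at 4 h). Upk3a had -1.001, -2.28, -1.76 and 0.98, called lower at 16 and 28 h and higher at 76 h. Ccn2 had -0.03, -1.30, -1.88 and -0.32, called at 16 and 28 h. Tnfsf11 had 0.37 at 28 h and 3.03 at 76 h, and Elf5 had -0.88 and 2.36, each called at 76 h alone. Other genes called above were not called at 28 h in this fit. Among them were Ccn1 (0.59, adjusted p = 0.0793), Myc (0.34, 0.168), Dnaic1 (0.83, 0.176), Cnn1 (0.38, 0.201), Eppk1 (0.38, 0.274) and Mmp11 (-0.32, 0.680).

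How many genes passed differed with the oil arrays used as controls, in both their times and their number. With oil of 4 and 76 h alone, 23 genes were called, and all 23 were among the 62. With all 12 oil arrays 37 were called, again all among the 62. With oil of a single time the counts were 13 (4 h), 51 (16 h) and 55 (76 h), of which 10, 19 and 15 were among the 62. When each oil time kept its own mean in the fit the count was 128, all 62 included. Egr2, Id4 and Upk3a were called under every alternative tried. RNA quality was read from control probe sets. The log2 ratio of the 3′ to the 5′ actin probe sets was 0.460 ± 0.0765 with progesterone (SD, n = 3) and 0.357 ± 0.0711 with oil (n = 9; exact two-sided permutation test over 220 splits, p = 0.0682, adjusted over 2 ratios 0.136, where the smallest p possible is 0.00455). For Gapdh the ratio was -0.0919 ± 0.0217 with progesterone and -0.115 ± 0.0851 with oil (exact permutation test, p = 0.645).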

How the data were processed

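Per the labels' protocols, each pool of mammary RNA (5 mice) was run on 1 Mouse Genome 430 2.0 array of Affymetrix. The deposited values are linear intensity values of 45101 probe sets on 24 arrays. How probes were summarized and arrays scaled is not given in the sources used here. Arrays of 1 treatment and time are replicate pools per the labels, and 3 arrays for each limit the precision. The main fit put the oil arrays of different times into 1 group. Its p-values therefore measure the spread between pools together with any differences between the oil times.

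Values under the 10th percentile of the table (7.38) were raised to it and log2 was taken. A probe set had to exceed its array's median on at least 3 of the 24 arrays. Among probe sets with 1 symbol, the brightest by its mean over the 24 arrays stood for its gene, leaving 12352 genes. Of the probe sets, 34958 had 1 symbol, 932 several and 9211 none, per the platform annotation of 2016, with symbols updated to RefSeq GRCm38.p6.

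The 12 arrays were fitted as 2 groups with limma 3.58.1 in R 4.3.3 (intensity trend in the variance, 10 residual degrees of freedom, two-sided tests). Benjamini-Hochberg adjustment ran over all genes, with a gene called at an adjusted p under 0.05. The fit was also run on simulated data with independent errors and no difference between oil times. That run could not check the pooling of oil times. Errors are SE for log2 changes and SD for intensities. Replicate numbers did not pair the arrays: of 9 pairs of equal number, 2 had a correlation of deviations over 0.1 (range -0.274 to 0.203).

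Genes named by rule were the 12 largest rises and falls outside the 9 oil arrays, the 10 largest of each outside all 12, from each list the 4 called members of largest change at most, and a fixed set that included Pgr, Wnt4 and Csn2, 44 in all. The other 24 called genes and the uncalled list members given with a value were chosen after their values were seen. The members and lists were chosen with earlier results of these data known.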

Additional observations from a re-analysis of the deposited data

Results flagged for a closer look

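In 4 genes the oil arrays of 28 h, which the comparison leaves out, all lay above the 9 other oil arrays: Csn2 (mean 660), Eppk1 (mean 384), Lrrc75b (mean 234) and Ccn2 (mean 1008). In 10 of the 68 reported genes they all lay below the 9 others: Prom2, Gpr153, Htra3, Procr, Wfdc17, Igfbp3, Dpep1, Fcna, Akr1c14 and Pamr1. For Gpr153, which was higher with progesterone, the oil mean was 125 at 28 h and 201 in the 9 other arrays. In 5 of the 68 genes reported, 1 of the 9 oil arrays lay far from the others, where chance sets about 1 in 20 such groups apart. The arrays were replicate 2 of 4 h for Prom2 (60.1, the highest), replicate 3 of 76 h for Krt14 (502, the highest), replicate 2 of 76 h for Elf5 (105, the lowest), replicate 3 of 16 h for Fcna (223, the lowest) and replicate 3 of 4 h for Slc7a2 (389.6, the lowest).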

How the results depend on the processing

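All 62 called genes kept their direction under every alternative in which they were tested, and 3 (Egr2, Id4, Upk3a) were called under all of them. Oil of 28 h as the only control was not among these alternatives. Against oil of 28 h, Csn2, Fcna, Wfdc17, Akr1c14, Igfbp3, Pamr1 and Htra3 had the opposite direction. The main count was 62 (33 higher, 29 lower). It was 37 without the intensity filter (14 lower), 682 with array weights (176 higher, 506 lower), 128 with a mean per oil time (55 higher, 73 lower) and 108 in a fit of all 24 arrays (56 higher, 52 lower). With other oil controls it was 23 for 4 and 76 h (14 higher, 9 lower), 13 for 4 h (7 higher, 6 lower) and 37 for all 12 oil arrays (14 lower), and for 16 h 13 genes were higher. With the replicate number as a block it was 39 (16 lower), of which 38 were among the 62. At an adjusted p under 0.01 it was 19 (13 higher, 6 lower), and with at least a 2-fold change 19 (11 higher, 8 lower). Leaving out single arrays gave 11 to 278 calls, 4 to 60 higher and 4 to 218 lower. The lowest total came without progesterone replicate 1 and the highest without replicate 3. The cause of these shifts was not tested, beyond the fewer arrays or stricter limits that some settings impose. The share of calls that were higher was 53.2%, against 41.1% with arrays centred on their medians (30 of 73), 25.8% with array weights and 43.0% with a mean per oil time. Fkbp5 and Esr1, neither of them called, changed sign. Fkbp5 was -0.00738 with centred arrays, -0.038 with the mean of probe sets, -0.039 with oil of 4 h, -0.13 with oil of 16 h, -0.12 with all 12 oil arrays and between -0.11 and 0.0901 with single arrays left out. Esr1 was -0.15 with oil of 4 h and -0.0135 to 0.21 with single arrays left out, negative without progesterone replicate 3. Of the other gene values under alternatives, 1602 kept their side of the threshold, 485 fell short of it and 3 passed it newly.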
